A study of Mus musculus with 16 samples.

Results

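The genes described here encode the kinase cascade that lies around the target of GDC-0623, an inhibitor of the kinase MEK. Members were the probe sets (groups of short probes that read 1 transcript on the array) whose single gene symbol in the platform annotation was Nras, Hras, Araf, Braf, Map2k1, Map2k2 or Mapk3, and 20 of the 45037 probe sets tested met that rule. They belong to 5 of the 7 genes, with 3 for Nras, 5 for Araf, 9 for Braf, 1 for Map2k1 and 2 for Map2k2. No probe set carried the single symbol Hras or Mapk3 in the annotation used, so these 2 genes were not analysed here. The tumors were grown from B16-OVA cells, a mouse melanoma line that carries the model antigen ovalbumin, under the flank skin of C57BL/6-Ly5.1 mice aged 6 to 12 weeks, and were taken 18 days after inoculation. MEKi+CD40 mice received GDC-0623 at 30 mg/kg daily with the CD40 mIgG1 antibody, MEKi mice received GDC-0623 with control IgG, CD40 mice received the vehicle MCT with the CD40 mIgG1 antibody, and control mice received vehicle with control IgG. Antibodies were given to all mice on treatment days 3, 5 and 7 and again 1 day before analysis. Each group held 4 mice and each tumor was read on 1 array, so replicates are separate animals that share 1 cell line.

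RAS proteins are small GTPases at the plasma membrane that switch on when growth factor receptors are engaged. Active RAS recruits RAF kinases, RAF phosphorylates the dual-specificity kinases MEK1 and MEK2, and these phosphorylate ERK1 and ERK2, which act on kinases and transcription factors in the cytoplasm and nucleus. The pathway is known for driving the growth of melanocytes and melanomas, and it also carries signals from antigen and growth factor receptors in leukocytes. The activity of its kinases is set mainly by phosphorylation, which an array of transcript levels does not measure, and the inhibitor acts on the MEK proteins and not on their transcripts.

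All values below are deposited log2 signals from the robust multichip average (RMA), a method that corrects, normalizes and summarizes the probes of each set, so 1 unit is a 2-fold step, and levels of different probe sets are not comparable. Of the 20 member probe sets, 19 had a mean over the 16 tumors above a background level of 4.94, under which 95% of 44 probe sets for olfactory receptors lie by their means, and the remaining one was Braf 1447941_x_at. Over the whole array 39.7% of probe sets lay below that level. All 9 melanocyte markers were above background in every tumor, with list scores of 13.18 to 13.5 in MEKi+CD40, 13.13 to 13.42 in MEKi, 13.09 to 13.38 in CD40 and 13.21 to 13.38 in control tumors. The score of 8 pan-leukocyte markers, the mean of their log2 signals, lay between 6.99 and 10.1 in MEKi+CD40, 5.67 and 7.75 in MEKi, 8.82 and 10.97 in CD40 and 7.14 and 9.15 in control tumors. These are bulk samples, so fewer cells of a type and less RNA per cell cannot be told apart, and the part of cell mixture in the members' values was not tested. The score of 15 skeletal muscle genes was 11.82 in MEKi+CD40 tumor 1, 8.91 in MEKi+CD40 tumor 3 and 7.66 in CD40 tumor 3, against 4.70 to 5.60 in the other 13 tumors. Fits that left out these 3 muscle tumors held 2 MEKi+CD40 and 3 CD40 tumors, with MEKi and control at 4. MEKi tumor 2, at 5.60, had 12 of the 15 genes above background, beside 7 in control tumors, and was not left out as a muscle tumor. MEKi+CD40 tumor 1 also had wider gaps between the 3′ and 5′ control probe sets of Gapdh and Actb, at 0.38 and 0.91 log2 units, than any of the other 15 tumors, where they reached at most 0.08 and 0.44.

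No member changed past the threshold in any of the 6 comparisons with all tumors in the fit. Calls were made with limma where the p adjusted by Benjamini-Hochberg over the whole array was under 0.05. MEKi+CD40 against CD40 called 0 of 20 member probe sets, beside 4.74% of all probe sets, and MEKi+CD40 against MEKi called 0 of 20, beside 1.15%. MEKi+CD40 against control called 0 of 20, beside 0.00888%. MEKi against control, CD40 against control and the interaction of the 2 agents called 0 of 20 each, beside 0% of all probe sets in each case. At an unadjusted p under 0.05 the members numbered 3 in MEKi+CD40 against control (background 21.2%), 3 in MEKi+CD40 against CD40 (21.3%), 1 in MEKi+CD40 against MEKi (20.3%), 1 in MEKi against control (6.91%), 0 in CD40 against control (8.56%) and 0 in the interaction (14.3%). Leaving out MEKi+CD40 tumor 1 raised these unadjusted counts to 7 against control (background 23.3%), 10 against CD40 (25.3%) and 7 against MEKi (21.6%). The adjusted threshold was then passed by 1 member probe set of Araf against control, beside 3.01% of all probe sets. Against CD40 it was passed by 4 of Araf and Braf, beside 7.79%. With all tumors the smallest adjusted p of a member was 0.101, for Nras 1422688_a_at in MEKi+CD40 against control.

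**Figure D1:**
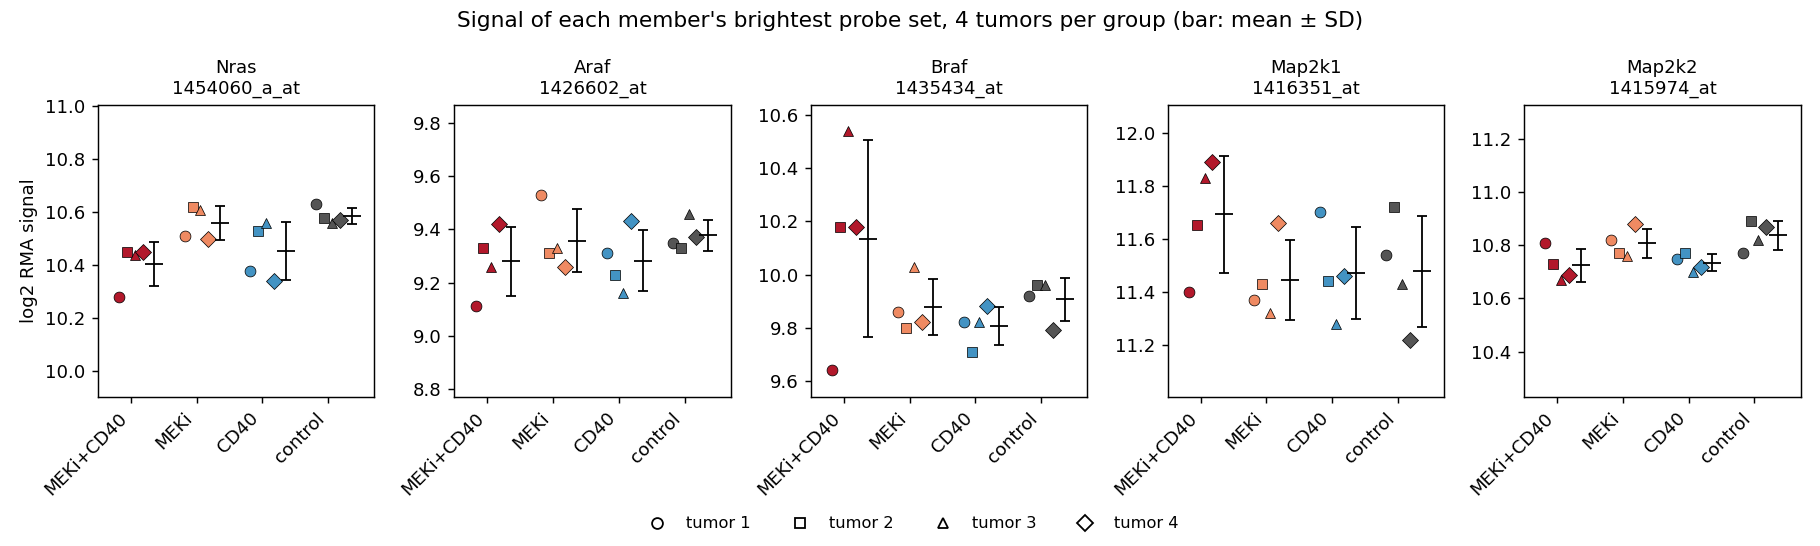
Log2 RMA signal (y axis, each panel spanning 1.1 log2 units) of the brightest probe set of each of the 5 measured genes in MEKi+CD40, MEKi, CD40 and control tumors, 1 symbol per tumor, with the mean ± SD of 4 tumors as a bar. Nras of the MEKi+CD40 tumors lies below that of all control tumors, Braf and Map2k1 spread over more than 0.4 units in the MEKi+CD40 tumors, and Map2k2 spans 0.22 units over all 16.

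The comparison of MEKi with control tumors addresses whether 2 weeks of MEK inhibition went with altered transcript levels of the cascade itself. For the brightest probe set of each gene, referred to below by the gene's name alone, the difference was small beside its error. It was -0.025 for Nras (95% confidence interval -0.17 to 0.12), -0.02 for Araf (-0.20 to 0.16), -0.03 for Braf (-0.21 to 0.15), -0.03 for Map2k1 (-0.30 to 0.24) and -0.03 for Map2k2 (-0.18 to 0.12). The widest of these intervals reached 0.301 log2 units away from 0. Over the 20 probe sets the median size of the difference was 0.04, beside 0.085 over all probe sets. The members had a median SE of 0.0871 here, beside 0.103 for all probe sets. The largest positive difference was that of Araf 1428607_at, 0.19 ± 0.12 (SE), with overlapping values. The smallest unadjusted p of a member, 0.0275 in limma, was that of Braf 1458641_at, which measured 6.68, 6.66, 6.74 and 6.65 in MEKi tumors, against 6.57, 6.51, 6.53 and 6.42 in control tumors. All 4 MEKi tumors lay above all 4 control tumors, by a mean of 0.17 ± 0.07 (SE; adjusted p = 0.69 in limma), and this was the 1 member probe set of 20 whose MEKi and control values did not overlap, beside 4.03% of all probe sets. The other 8 Braf probe sets all overlapped.

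Nras is the RAS isoform that carries activating mutations most often in human melanoma. In MEKi+CD40 tumors Nras measured 10.28, 10.45, 10.44 and 10.45, in MEKi tumors 10.51, 10.62, 10.61 and 10.50, in CD40 tumors 10.38, 10.53, 10.56 and 10.34, and in control tumors 10.63, 10.58, 10.56 and 10.57. All MEKi+CD40 tumors lay below all control tumors and below all MEKi tumors, and the CD40 tumors overlapped with them. The means were 10.405 ± 0.083 in MEKi+CD40, 10.56 ± 0.06 in MEKi, 10.45 ± 0.11 in CD40 and 10.585 ± 0.031 in control tumors (SD, n = 4 each). MEKi+CD40 tumors were thus 0.18 ± 0.07 log2 units (SE) under control tumors, a 0.883-fold level, with an unadjusted p of 0.0339 and an adjusted p of 0.192 in limma. With tumor 1, the lowest of all 16, left out, the difference was -0.14 (unadjusted p = 0.0833 and adjusted p = 0.283 in limma), no longer under 0.05 before adjustment. The difference from MEKi tumors was -0.16 (-0.33 to 0.015; adjusted p = 0.291 in limma), and that from CD40 tumors was -0.05 (-0.24 to 0.14).

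The other 2 Nras probe sets had the same sign in MEKi+CD40 against control. Nras 1422688_a_at measured 8.69, 8.59, 8.35 and 8.63 in MEKi+CD40 tumors, against 9.01, 8.85, 8.85 and 8.82 in control tumors, with 8.69, 8.77, 8.99 and 8.80 in MEKi and 8.71, 9.11, 8.80 and 8.87 in CD40 tumors. Its MEKi+CD40 values lay below every control value and every CD40 value, and the highest of them equalled the lowest MEKi value. The difference from control was -0.32 ± 0.09 (SE; adjusted p = 0.101 in limma), and without MEKi+CD40 tumor 1 it was -0.36 (adjusted p = 0.0721). Nras 1422687_at measured 9.88, 10.30, 10.18 and 10.39 in MEKi+CD40 tumors, against 10.48, 10.48, 10.35 and 10.33 in control tumors, and these overlapped through the highest MEKi+CD40 tumor (difference -0.22 ± 0.12, SE). Its lowest value was that of tumor 1, without which the difference was -0.12 ± 0.09 (unadjusted p = 0.207 in limma). With all members counted, 2 of 20 probe sets did not overlap between MEKi+CD40 and control tumors, both of Nras and both lower, beside 14% of all probe sets. The count was 1 of 20 against CD40 tumors (Nras 1422688_a_at, background 14.3%) and 2 of 20 against MEKi tumors (Nras and Nras 1422687_at, background 13%), so with all tumors the members' share was above the background in none of these 3 comparisons. This rested on MEKi+CD40 tumor 1. With that tumor left out, 5 member probe sets lay wholly higher and 3 wholly lower against control (background 20.7%). Against CD40 tumors 8 lay higher and 1 lower (23.4%), and against MEKi tumors 4 higher and 4 lower (19%). These shares of the 20 probe sets were above the background in each comparison. All the higher ones were of Araf or Braf, which hold 5 and 9 of the 20, and the lower ones of Nras or Map2k2. Against control and CD40 the higher ones included the Braf probe set whose mean lay below the background level. Several probe sets thus read the same gene, and an excess counted by genes was not tested. CD40 against control had 0 of 20, beside 4.66%.

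Araf and Braf encode kinases of the RAF family, the first tier below RAS, and Braf is the family member mutated in many human melanomas. Araf measured 9.11, 9.33, 9.26 and 9.42 in MEKi+CD40 tumors, 9.53, 9.31, 9.33 and 9.26 in MEKi tumors, 9.31, 9.23, 9.16 and 9.43 in CD40 tumors, and 9.35, 9.33, 9.46 and 9.37 in control tumors. The 4 groups overlapped throughout, and the lowest value was that of MEKi+CD40 tumor 1. Its differences from control were -0.10 (-0.29 to 0.10) in MEKi+CD40, -0.02 (-0.20 to 0.16) in MEKi and -0.10 (-0.27 to 0.08) in CD40 tumors, none of them called, and that of MEKi+CD40 was -0.04 (-0.22 to 0.14) with tumor 1 left out.

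The other Araf probe sets did not move as one with it. Araf 1428607_at measured 6.57, 7.18, 6.98 and 7.22 in MEKi+CD40 tumors, 6.51, 6.89, 6.71 and 7.08 in MEKi tumors, 6.67, 6.69, 6.32 and 6.48 in CD40 tumors and 6.54, 6.75, 6.54 and 6.60 in control tumors. MEKi+CD40 tumors 2 to 4 lay above every CD40 and control tumor, and tumor 1 lay among them. With all tumors the differences were 0.38 ± 0.15 from control (SE; adjusted p = 0.178 in limma) and 0.45 ± 0.16 from CD40 (adjusted p = 0.146). Without MEKi+CD40 tumor 1 they were 0.52 ± 0.10 and 0.59 ± 0.12, with adjusted p = 0.0482 (beside 3.01% of all probe sets called in that fit) and 0.0282 (beside 7.79%), past the threshold in both. Araf 1435566_s_at measured 7.52 in MEKi+CD40 tumor 1 and 9.20, 9.10 and 9.27 in the other 3, against 9.01, 9.21, 8.93 and 8.68 in control tumors, so that the group held both the lowest and the highest of all 16 values. Over the 5 Araf probe sets, MEKi+CD40 tumors were above control tumors in 3 and below in 2, with the mean of all 5 at 0.04 against -0.10 for Araf alone. That mean was taken with tumor 1 in the fit only.

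Of the 5 brightest probe sets, that of Braf spread most in the MEKi+CD40 group. It measured 9.64, 10.18, 10.54 and 10.18 in MEKi+CD40 tumors, 9.86, 9.80, 10.03 and 9.82 in MEKi tumors, 9.82, 9.71, 9.82 and 9.88 in CD40 tumors, and 9.92, 9.96, 9.96 and 9.79 in control tumors. MEKi+CD40 tumors 2 to 4 held the 3 highest values of all 16 tumors and tumor 1 the lowest. The group means were 10.135 ± 0.371 in MEKi+CD40, 9.88 ± 0.10 in MEKi, 9.81 ± 0.07 in CD40 and 9.91 ± 0.08 in control tumors (SD, n = 4 each). MEKi+CD40 minus control was 0.23 (-0.16 to 0.62; adjusted p = 0.486 in limma), minus CD40 it was 0.33 (-0.06 to 0.72; adjusted p = 0.322), and minus MEKi it was 0.26 (-0.14 to 0.66; adjusted p = 0.466). The interaction was 0.36 (-0.05 to 0.77; adjusted p = 0.435 over all 16 tumors), and 0.52 (0.24 to 0.80; adjusted p = 0.0683) with tumor 1 left out.

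Without MEKi+CD40 tumor 1, Braf differed by 0.39 ± 0.11 (SE) from control (adjusted p = 0.0786), by 0.49 ± 0.11 from CD40 (adjusted p = 0.0376) and by 0.42 ± 0.12 from MEKi (adjusted p = 0.0821), so that the comparison with CD40 tumors passed the threshold. In that comparison 2 more of its probe sets passed, Braf 1447940_a_at by 0.46 ± 0.10 (adjusted p = 0.0313) and Braf 1458641_at by 0.49 ± 0.10 (adjusted p = 0.0285), so that with Araf 1428607_at 4 of the 20 member probe sets were called, beside 7.79% of all probe sets in the same fit. With CD40 tumor 3 and MEKi+CD40 tumor 3 left out as well, the other tumors with muscle transcripts, Araf 1428607_at was the only member called against CD40, by 0.59 (adjusted p = 0.0425, beside 3.39% of all probe sets). That fit held 2 MEKi+CD40 and 3 CD40 tumors. Whether the low readings of MEKi+CD40 tumor 1 or the higher readings of its group mates stand for the treatment was not tested.

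The 9 Braf probe sets did not share a direction. Against control, MEKi+CD40 tumors were higher in 4 and lower in 5 with all tumors, and higher in 6 and lower in 3 without MEKi+CD40 tumor 1. Against CD40 the counts were 5 higher and 4 lower with it, and 8 higher and 1 lower without it. The probe set that stayed lower was Braf 1442749_at, which measured 5.28, 5.54, 5.97 and 6.46 in MEKi+CD40 tumors, against 6.47, 6.80, 6.09 and 6.88 in CD40 tumors, a difference of -0.75 ± 0.27 (SE; adjusted p = 0.159 in limma). The mean of all 9 probe sets, with all tumors in the fit, was -0.09 from control, opposite in sign to Braf alone. MEKi+CD40 tumor 1 lay below the mean of its group mates in all 9, and the mean of the 9 was not taken without it. Which part of the transcript each probe set reads was not used here.

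**Figure D2:**
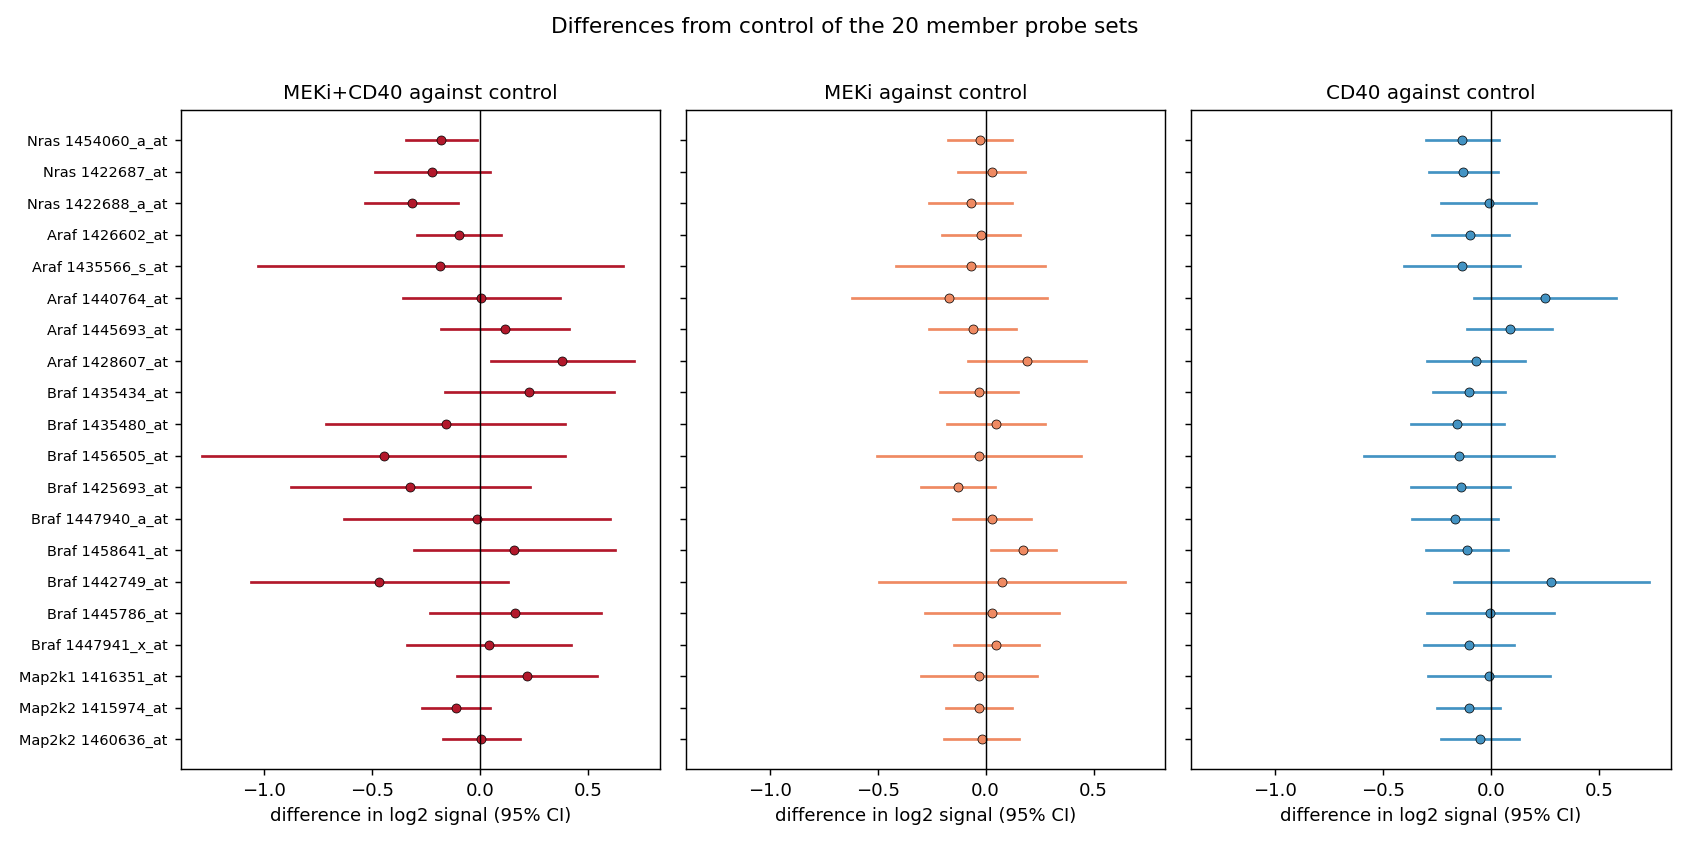
Difference in log2 signal from control tumors (x axis) with its 95% confidence interval from limma for each of the 20 member probe sets (rows), in MEKi+CD40, MEKi and CD40 tumors (panels). Most intervals cross 0, those of MEKi+CD40 are the widest for Araf 1435566_s_at and Braf 1456505_at, and the 3 Nras probe sets lie below 0 in that panel.

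Map2k1 and Map2k2 encode MEK1 and MEK2, the direct targets of GDC-0623. Map2k1 measured 11.40, 11.65, 11.83 and 11.89 in MEKi+CD40 tumors, 11.37, 11.43, 11.32 and 11.66 in MEKi tumors, 11.70, 11.44, 11.28 and 11.46 in CD40 tumors, and 11.54, 11.72, 11.43 and 11.22 in control tumors. The groups overlapped, with MEKi+CD40 tumors 3 and 4 above all other tumors and tumor 1 within their range. The differences of MEKi+CD40 were 0.22 (-0.11 to 0.54) from control, 0.22 (-0.08 to 0.53) from CD40 and 0.25 (-0.04 to 0.54) from MEKi, with adjusted p between 0.328 and 0.426 in limma. Without MEKi+CD40 tumor 1 they were 0.31, 0.32 and 0.35, with adjusted p of 0.187, 0.135 and 0.114, still short of the threshold.

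Map2k2 was the steadiest member. It measured 10.81, 10.73, 10.67 and 10.69 in MEKi+CD40 tumors, 10.82, 10.77, 10.76 and 10.88 in MEKi tumors, 10.75, 10.77, 10.70 and 10.72 in CD40 tumors, and 10.77, 10.89, 10.82 and 10.87 in control tumors. All 16 values fell within 0.22 log2 units, and their SD stood at the 0.571 percentile of the SDs of all probe sets. Its other probe set, 1460636_at, spanned 0.27 units, at the 1.77 percentile. MEKi+CD40 differed from control by -0.11 (-0.27 to 0.05), MEKi by -0.03 (-0.18 to 0.12) and CD40 by -0.10 (-0.25 to 0.04). In MEKi+CD40 tumor 1, Map2k2 and its other probe set lay 0.11 and 0.15 units above the mean of the group mates, where most other members lay below it.

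ERK1 is the product of Mapk3, which with Hras had no member probe set, so the last tier of the cascade is represented here by no member. Of the 5 genes measured, the order of group means was not shared. MEKi+CD40 tumors had the lowest mean of the 4 groups for Nras, Araf and Map2k2 and the highest for Braf and Map2k1, and the ranges overlapped with those of all other groups in each case but Nras, which overlapped with CD40 alone. For Araf the means were 9.28 in MEKi+CD40 and 9.2825 in CD40 tumors. Without MEKi+CD40 tumor 1 the Araf difference from CD40 was 0.05, and CD40 tumors then had the lowest mean. Over the 20 probe sets the median difference from control was -0.06 in MEKi+CD40 (0.005 over all probe sets), -0.02 in MEKi (0.01) and -0.10 in CD40 tumors (-0.025). In CD40 tumors 17 of the 20 probe sets had a negative difference, between -0.17 and 0.28 in all, and the smallest adjusted p among them was 0.637. Of the 17, 8 were of Braf, 3 of Nras, 3 of Araf, 2 of Map2k2 and 1 of Map2k1, so they are repeated readings of a few genes. The share of negative differences over all probe sets is not given here.

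MEKi+CD40 tumor 1 gave the lowest of the 16 readings in 12 of the 20 member probe sets (60%), against 19.1% of all probe sets, and no other tumor was lowest in more than 2. Of these, 8 were of Braf, 2 of Araf and 2 of Nras. Its difference from the mean of the other 3 MEKi+CD40 tumors was -0.66 log2 units for Braf, -1.31 for Braf 1456505_at, -1.22 for Braf 1447940_a_at and -1.67 for Araf 1435566_s_at. It was -0.17 for Nras, -0.23 for Araf and -0.39 for Map2k1. MEKi+CD40 tumor 3, whose muscle score was the second highest, was the lowest of the 16 in 2 probe sets, Nras 1422688_a_at and Map2k2, and the highest for Braf. Its 3′ to 5′ gaps, 0 and 0.33, lay within the range of the tumors other than tumor 1. Tumor 1, with a muscle score of 11.82, and tumor 3, with 8.91, thus held the lowest and the highest Braf reading of all tumors. Tumor 1 was the one with the wide gaps, and it also had the highest fibroblast and matrix (12.12) and endothelial (7.66) scores. The parts of cell mixture and RNA quality in its readings cannot be told apart and were not tested.

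**Figure D3:**
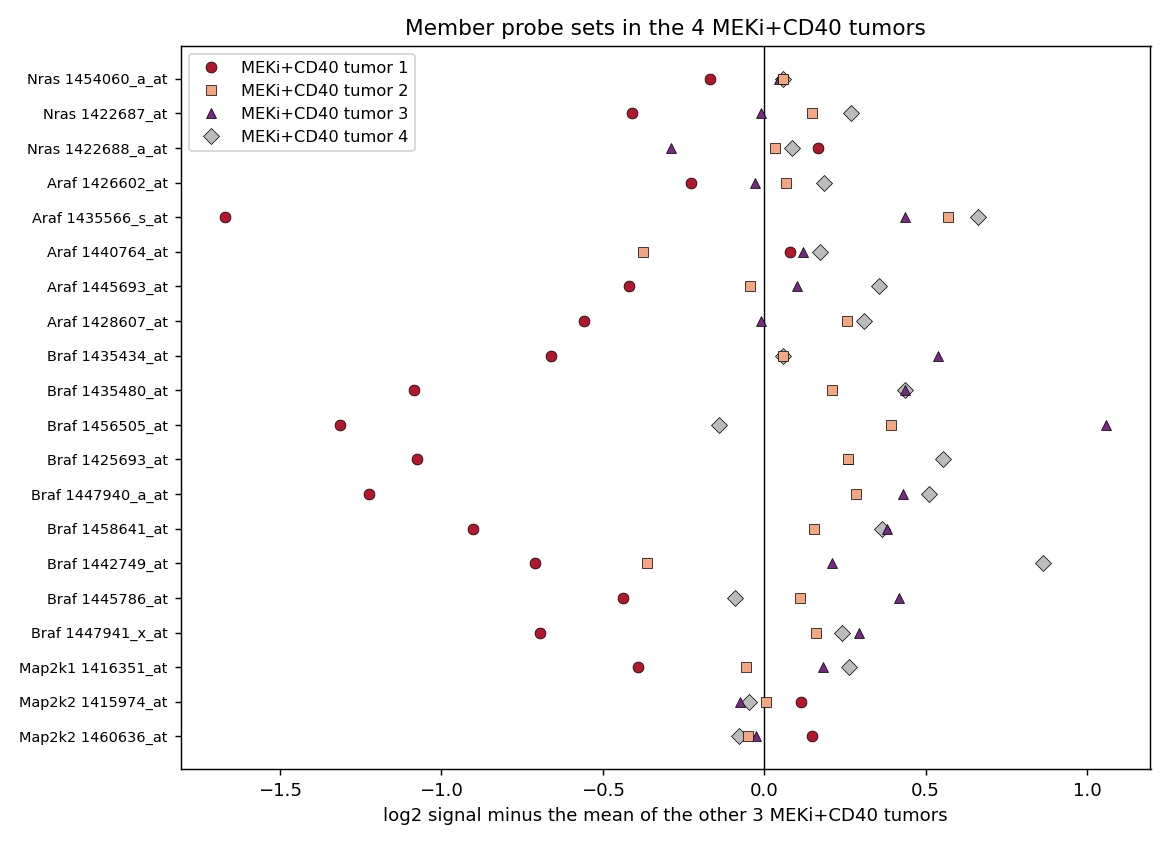
Log2 signal of the 20 member probe sets (rows) in each of the 4 MEKi+CD40 tumors, as the difference from the mean of the other 3 tumors of that group (x axis). Tumor 1 lies to the left of 0 for all 9 Braf probe sets, reaches -1.67 for Araf 1435566_s_at, and lies to the right for both Map2k2 probe sets.

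Probe sets of 1 gene agreed to differing degrees over the 16 tumors. Pearson correlations between pairs ran from 0.376 to 0.803 for Nras (3 pairs), from -0.373 to 0.542 for Araf (10 pairs) and from -0.067 to 0.924 for Braf (36 pairs), and the pair of Map2k2 gave 0.275. The median for Braf was 0.559 with all tumors and 0.246 without MEKi+CD40 tumor 1. Between genes, Braf and Map2k1 had a correlation of 0.624 and Braf and Map2k2 one of -0.522, and the other 8 pairs lay between -0.286 and 0.271. The tumors share groups and arrays, so these coefficients are descriptions.

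The genes whose pattern over the 16 tumors was most like each member were found among 12698 genes above background. For Nras they were Ptar1 (Pearson r = 0.848) and Nudt17 (0.810), for Araf Usp34 (0.864) and Fat1 (0.828), and for Braf Usp32 (0.914) and Zbtb20 (0.907). For Map2k1 they were Pde7a (0.933) and Isoc2b (0.924), and for Map2k2 Wrap73 (0.837) and Sem1 (0.794). Without MEKi+CD40 tumor 1 these coefficients lay between 0.756 and 0.932. The genes were picked for high coefficients over these same tumors, so both sets of values are descriptions and no check of the likeness.

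Around the cascade, 77 of 85 genes in 6 lists had a probe set of their own, and 3 calls were made among them, 1 per gene. Against control, none of the 3 treatments called any of the 77, beside 0.0055% of all genes for MEKi+CD40 and 0% for MEKi and for CD40. MEKi+CD40 against CD40 called 2, beside 6.44% of all genes read by their brightest probe set, and MEKi+CD40 against MEKi called 1, beside 1.55%. The interaction called 0, beside 0% of all genes. The median difference of the 77 was 0.08 in MEKi+CD40 against CD40 (0.04 over all genes) and 0.02 in MEKi+CD40 against MEKi (0.005), so the pooled median lay close to that of all genes. Single lists lay further off. In MEKi+CD40 against control their medians ran from -0.13 for parallel MAP kinase modules to 0.18 for RAS activators and adaptors (0.03 over all genes). Against CD40 the highest was 0.20, for RAS membrane processing. With MEKi+CD40 tumor 1 left out the genes called were 5 of 77 against control (Sos2 higher, Rasa3, Fntb, Rps6ka6 and Mapk12 lower, beside 3.81% of all genes), 7 against CD40 (beside 10.2%) and 0 against MEKi (beside 2.76%).

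Rps6ka6 encodes RSK4, a kinase of the ribosomal S6 kinase family that ERK acts on. It measured 5.56, 6.78, 6.01 and 6.72 in MEKi+CD40 tumors, 8.14, 8.37, 7.27 and 7.86 in MEKi tumors, 7.92, 7.78, 7.12 and 7.62 in CD40 tumors, and 8.48, 7.84, 8.12 and 8.23 in control tumors. All MEKi+CD40 tumors lay below all others, and the lowest were tumors 1 and 3, those with muscle transcripts. It fell by 1.34 ± 0.30 log2 units (SE) in MEKi+CD40 against CD40 tumors (adjusted p = 0.044 in limma), and by 1.02 with the 3 muscle tumors left out (adjusted p = 0.0282). With 1 tumor left out at a time the adjusted p ran between 0.0354 and 0.136, and the call was lost without any one of the CD40 tumors and without MEKi+CD40 tumor 3 or 4. Differences of -1.90 from control and -1.64 from MEKi had adjusted p of 0.0517 and 0.0522, short of the threshold. Of 8 kinases listed as activated by ERK, 5 were measured. Of the 4 others, Mknk2 measured 12.65 on average in MEKi+CD40 and 12.19 in MEKi tumors (0.46, adjusted p = 0.0663) and Rps6ka3 10.59 in MEKi+CD40 and 10.37 in CD40 tumors (0.22, adjusted p = 0.212). In control tumors Mknk2 averaged 12.56, near MEKi+CD40 and above MEKi in every tumor (MEKi minus control -0.365, adjusted p = 0.581 in limma). Rps6ka3 averaged 10.47 in control tumors.

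Pde6d encodes a chaperone that carries farnesylated RAS through the cytosol. It measured 9.99, 9.99, 10.14 and 10.19 in MEKi+CD40 tumors, 9.57, 9.79, 9.63 and 9.92 in MEKi tumors, 9.67, 9.50, 9.67 and 9.60 in CD40 tumors, and 9.65, 9.94, 9.81 and 9.81 in control tumors. Every MEKi+CD40 tumor lay above every other tumor. It rose by 0.47 ± 0.08 (SE) against CD40 tumors (adjusted p = 0.0309 in limma), 0.50 with the muscle tumors left out (adjusted p = 0.064, past the threshold no longer). The call was also lost without any one of the CD40 tumors and without MEKi+CD40 tumor 3 or 4, over a range of adjusted p between 0.0217 and 0.109. Among the other 11 genes of RAS membrane processing none was called. Abhd17c, a depalmitoylating enzyme that acts on Nras, averaged 8.80 in MEKi+CD40, against 9.45 in MEKi tumors (-0.65, adjusted p = 0.0566), and Fnta, the alpha subunit of farnesyltransferase, averaged 11.25 in MEKi+CD40, against 10.91 in CD40 tumors (0.34, adjusted p = 0.082). Abhd17c was lowest in MEKi+CD40 tumors 1 and 3, the ones with muscle transcripts (8.57 and 8.62, against 9.07 and 8.92 in their group mates). Fnta did not split this way. Fnta averaged 11.155 in control tumors, above CD40 in every tumor (CD40 minus control -0.24, adjusted p = 0.532 in limma).

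Mras encodes a RAS relative that forms a phosphatase complex with Shoc2 and acts on RAF. It measured 8.23, 8.19, 8.42 and 7.44 in MEKi+CD40 tumors, 6.92, 6.53, 6.66 and 7.20 in MEKi tumors, 7.82, 8.28, 8.14 and 7.64 in CD40 tumors, and 6.93, 7.33, 8.08 and 7.35 in control tumors. MEKi+CD40 lay above MEKi in every tumor and overlapped with CD40. The rise against MEKi was 1.24 ± 0.23 (SE; adjusted p = 0.04999 in limma, at the edge of the threshold), and 0.99 with the muscle tumors left out (adjusted p = 0.161, no longer past the threshold). With 1 tumor left out at a time the call held only without MEKi+CD40 tumor 4 (adjusted p = 0.0319) and reached an adjusted p of 0.163 at most. MEKi tumors had the lowest Mras mean and also the lowest range of the pan-leukocyte score, and the part of leukocytes in the Mras values was not tested. No other gene in the list of scaffolds, chaperones and regulators was called. Ksr1, a scaffold for RAF, MEK and ERK, averaged 7.23 in MEKi+CD40, against 6.55 in MEKi tumors (0.68, adjusted p = 0.12), and Map3k8, a kinase that activates MEK in leukocytes, averaged 6.22 in MEKi+CD40, against 5.21 in MEKi tumors (1.01, adjusted p = 0.123). Ksr1 was highest in MEKi+CD40 tumor 1, at 7.92, with 7.01, 7.11 and 6.87 in its group mates. Map3k8 was also highest in that tumor, at 7.23, with 5.93, 6.19 and 5.54 in its group mates. In CD40 tumors Ksr1 averaged 6.89 and Map3k8 6.09, and both overlapped with MEKi+CD40.

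In the other 3 lists no gene was called in any comparison with all tumors in the fit, beside at most 6.44% of all genes. Among 14 RAS activators and adaptors, Gab1, an adaptor below growth factor receptors, averaged 8.77 in MEKi+CD40, against 8.06 in CD40 tumors (0.71, adjusted p = 0.0501). Its highest readings were those of MEKi+CD40 tumors 1 and 3, the ones with muscle transcripts (8.95 and 9.11, against 8.41 and 8.59 in their group mates). Sos2, an exchange factor that loads RAS with GTP, averaged 10.0025 in MEKi+CD40, against 9.57 in control tumors (0.43, adjusted p = 0.0852), and Grb2, which brings SOS proteins to receptors, averaged 10.005 in MEKi+CD40, against 9.73 in MEKi tumors (0.28, adjusted p = 0.108). Grb2 averaged 10.015 in CD40 tumors. Among 9 RAS GTPase-activating proteins, which switch RAS off, Rasa3 averaged 9.32 in MEKi+CD40, against 9.84 in control tumors (-0.52, adjusted p = 0.0517). Rasa4 averaged 5.60 in MEKi, against 6.64 in control tumors (-1.04, adjusted p = 0.57), and 7.22 in MEKi+CD40, against 5.60 in MEKi tumors (1.62, adjusted p = 0.0629). Its highest mean was that of CD40 tumors, 7.835, where every tumor lay above every control tumor (1.20, adjusted p = 0.511 in limma). Dab2ip averaged 8.84 in MEKi+CD40, against 8.28 in MEKi tumors (0.56, adjusted p = 0.0652). Within the MEKi+CD40 group, Dab2ip was highest in tumors 1 and 3 (8.99 and 9.10, against 8.65 and 8.62). So was Rasa4 (8.20 and 7.48, against 6.93 and 6.27). The shifts of Sos2, Grb2 and Rasa3 were not largest in both of those tumors. The part of muscle in these values was not tested.

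Among 14 genes of parallel MAP kinase modules, which answer to stress and cytokines, Mapk14, the p38 alpha kinase, averaged 10.43 in MEKi+CD40, against 10.77 in control tumors (-0.35, adjusted p = 0.0686). Mapk8, the JNK1 kinase, averaged 7.78 in MEKi+CD40, against 8.24 in MEKi tumors (-0.46, adjusted p = 0.103), and Map2k6, a kinase upstream of p38, averaged 6.38 in CD40, against 6.97 in control tumors (-0.59, adjusted p = 0.472). Mapk14 was lowest in MEKi+CD40 tumors 1 and 3, the ones with muscle transcripts (10.31 and 10.30, against 10.54 and 10.55 in their group mates). So was Mapk8 (7.54 and 7.59, against 7.90 and 8.08). The part of muscle in these values was not tested.

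**Figure D4:**
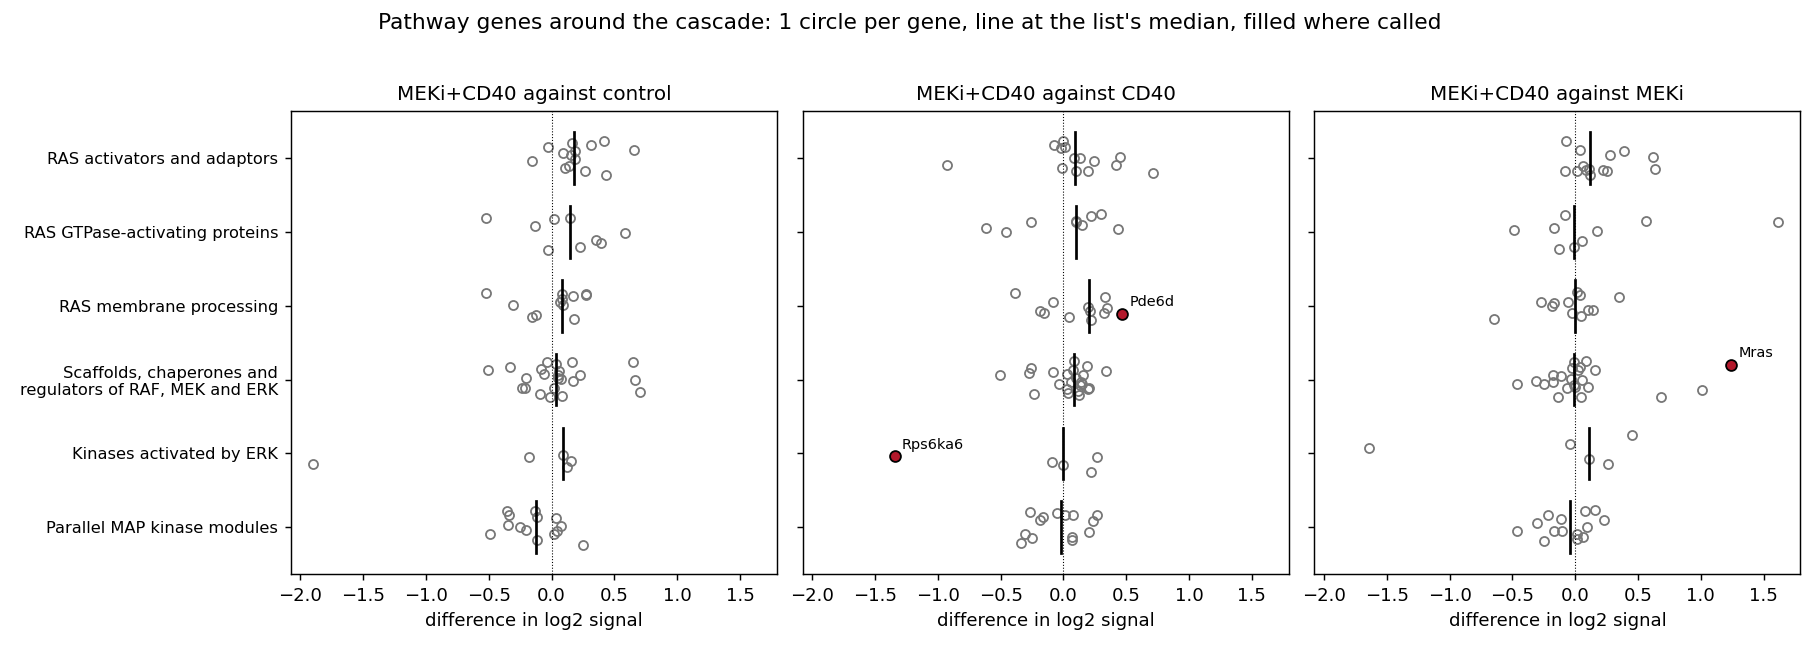
Difference in log2 signal (x axis) of MEKi+CD40 tumors from control, CD40 and MEKi tumors (panels) for genes of the lists (rows) around the cascade, 1 circle per gene, with a line at each median and filled circles where the adjusted p passed 0.05. The filled circles are Pde6d and Rps6ka6 against CD40 and Mras against MEKi, and the medians lie between -0.13 and 0.20.

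Genes that ERK activity induces, such as phosphatases and Sprouty proteins that feed back on the pathway, were described by counts alone. Of 19 listed, 18 were measured, and 0 were called in any of the 6 comparisons with all tumors, beside at most 6.44% of all genes. In MEKi against control 14 differences were positive and 4 negative (median 0.17), with 1 at an unadjusted p under 0.05, beside 7.9% of all genes, and CD40 against control had 0, beside 9.98%. In MEKi+CD40 they were negative in 15 of 18 against control (median -0.45), in 15 against CD40 (median -0.45) and in 16 against MEKi (median -0.60). At an unadjusted p under 0.05 there were 2 against control, both lower (beside 25.4% of all genes), 5 lower and 1 higher against CD40 (25.5%), and 6 against MEKi, all lower (24.6%). The interaction had 4, all lower (17.6%). Without MEKi+CD40 tumor 1 they were 6 against control, all lower (27.7%), 8 lower and 1 higher against CD40 (29.9%), and 8 against MEKi, all lower (25.7%), and 2 were called against CD40, beside 10.2% of all genes. Without the 3 muscle tumors the medians were -0.16 against control, -0.22 against CD40 and -0.28 against MEKi, with 13, 10 and 17 of the 18 negative. The comparisons share tumors and the genes were not chosen independently of these data, so the counts are descriptions.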

How the data were processed

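Total RNA of 16 snap-frozen tumors (200 ng each), called whole tumor in the labels, was read on Affymetrix mouse 3′ expression arrays. Deposited log2 values had been made by the authors with RMA in Chipster (version not given in the sources used here), and these were used as they stand. Array files name no genome build here, so no coordinates are given. Of 45101 probe sets, 64 controls were left out; 34945 carried 1 gene symbol, 932 several and 9160 none. Pairwise comparisons used the 8 arrays involved. The interaction (the effect of adding CD40 antibody under MEKi less its effect under vehicle) used all 16. Models were limma 3.58.1 (lmFit, eBayes; R 4.3.3), tested on simulated data. The number of arrays limits the precision. A gene was represented by its brightest probe set over all arrays. Up to 3 genes per list were named by smallest unadjusted p, with any that were called, and 2 per member by correlation. ERK-induced genes were counted only. Markers of other cell types were scored as the mean log2 signal of their lists. Of these, T cell scores were 5.79 to 6.83, 5.54 to 5.75, 6.25 to 7.46 and 5.74 to 6.73 in MEKi+CD40, MEKi, CD40 and control tumors. Macrophage scores were 6.04 to 9.78, 5.21 to 7.69, 8.00 to 10.3 and 6.34 to 8.32, fibroblast and matrix scores 8.19 to 12.1, 8.28 to 11.5, 8.16 to 11.1 and 8.51 to 9.07, and endothelial scores 5.80 to 7.66, 4.81 to 6.40, 5.65 to 7.14 and 5.72 to 6.23 in the same groups. Keratinocyte and adipocyte scores reached at most 4.60 and 5.26, with at most 1 marker above background. Alternatives changed the normalization, the filter, the weights, the model and the tumors in the fit. The members and lists were chosen with earlier results of these data known.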

Additional observations from a re-analysis of the deposited data

Results flagged for a closer look

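In 8 of 80 sets of 4 tumors (20 probe sets in 4 groups), 1 tumor stood apart from the other 3 by more than the 95% limit for such a gap, which chance passes in about 5% of sets. The share over all probe sets under the same rule was not computed. The 80 sets also share tumors and genes, so the count shows no excess of the members over the array. MEKi+CD40 tumor 1 accounted for 5 of the 8, always as the low one: 10.28 for Nras (nearest other tumor of its group 10.44), 7.52 for Araf 1435566_s_at (9.10), 7.52 for Braf 1435480_at (8.49), 5.78 for Braf 1447940_a_at (6.91) and 3.99 for Braf 1447941_x_at (4.63), the last below the background level. The other 3 were spread over groups: Araf 1440764_at at 7.56 in MEKi+CD40 tumor 2 (nearest 7.90), Braf 1458641_at at 6.20 in CD40 tumor 2 (nearest 6.45) and Nras 1422688_a_at at 9.01 in control tumor 1 (nearest 8.85). In 40 pairs of effects none ran in opposite directions in every tumor.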

How the results depend on the processing

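The count of member probe sets called stayed at 0 in all comparisons and alternatives but 5. With array weights it was 1 in MEKi+CD40 against control (beside 6.89% of all probe sets) and 1 in MEKi+CD40 against CD40 (9.76%), a share of the members below both. Without the 3 muscle tumors it was 1 in MEKi+CD40 against CD40 (3.39%). With each tumor left out in turn it ran from 0 to 1 in MEKi+CD40 against control and from 0 to 4 in MEKi+CD40 against CD40, highest without MEKi+CD40 replicate 1. Of 600 fits of the 5 genes, 1 was called, Braf against CD40 without that tumor (0.49). The number of all probe sets called was far less stable, from 0 to 4904 in MEKi+CD40 against control (4 as reported), 0 to 5309 against CD40 (2133), 0 to 4699 against MEKi (518) and 0 to 755 in the interaction (0). The replicate numbers did not pair the tumors (correlations of same-numbered deviations -0.517 to 0.473, 7 of 24 over 0.1), and with a replicate block 0 member probe sets and 0 of all probe sets were called in each comparison, with adjusted p of 0.0704, 0.0805 and 0.0993 for Pde6d, Rps6ka6 and Mras. Pde6d and Rps6ka6 were called in 11 of 19 fits each and Mras in 7 of 19, and each kept its sign in all of them. Braf 1447941_x_at lay below the background level, which limits what its differences can show.

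Signs changed in 48 member fits, each of a difference whose reported interval includes 0; the causes were not tested. With cyclic loess these were Map2k1 in CD40 against control (0.036), Araf (0.021) and Map2k2 (0.019) in MEKi+CD40 against CD40, and the Nras interaction (0.0042). With array weights they were Map2k1 in CD40 against control (0.042), Nras (0.012) and Araf (0.0083) in MEKi+CD40 against CD40, and the interactions of Nras (0.046) and Map2k2 (-0.012). Without the muscle tumors they were Map2k1 in CD40 against control (0.056), Nras (0.033) and Araf (0.052) in MEKi+CD40 against CD40, Araf in MEKi+CD40 against MEKi (0.0175), and the interactions of Nras (0.058) and Map2k2 (-0.0067). With each gene's probe sets averaged, Araf was 0.0085 in CD40 against control, 0.0435 in MEKi+CD40 against control, 0.035 against CD40 and 0.069 against MEKi. Braf averaged that way was 0.024 in MEKi against control, -0.092 in MEKi+CD40 against control, -0.021 against CD40, -0.116 against MEKi and -0.045 in the interaction, and Map2k2 was 0.0225 in MEKi+CD40 against CD40. Those averages were taken with all tumors only, and not without MEKi+CD40 tumor 1. With 1 tumor left out at a time, Map2k1 ran from -0.093 to 0.073 in CD40 against control and from -0.118 to 0.048 in MEKi against control, and Araf from -0.0775 to 0.0125 in MEKi against control. In MEKi+CD40 against CD40, Araf ran from -0.049 to 0.054 and Map2k2 from -0.038 to 0.0083. In the interaction, Nras ran from -0.06 to 0.019, Araf from -0.029 to 0.075 and Map2k2 from -0.0083 to 0.044.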
